A study of Rattus norvegicus with 7 samples.

Results

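Cell cycle and DNA replication genes were followed on 7 Affymetrix rat arrays, from a list of 39 genes chosen by name: cyclins and their kinases, the replicative helicase and its clamp, enzymes of nucleotide supply, and regulators of mitosis. By the platform annotation, 23 of the 39 had at least 1 probe set of their own (47 probe sets), among 4736 genes on the array. Each gene was represented by its brightest probe set. Mki67, Ccna2, Ccnb2, Mcm2, Mcm3, Mcm4, Rrm1, Rrm2, Aurka, Ube2c, Birc5, Tk1, Kif4a, Cks2, Nusap1 and Prc1 were not analysed here.

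The arrays held total RNA of primary hippocampal cultures from Wistar rats, given as 17-day-old for both cell types without saying whether that is an embryonic or postnatal age. Cultures labelled neurons received grape seed extract, a polyphenol-rich plant extract, at 0, 1 or 10 µg/ml for 24 h, and cultures labelled astrocytes received 0, 1, 10 or 100 µg/ml. Both were kept in the same DMEM-based medium with N1 supplement, and the extract was the only treatment named. Each combination of cell type and dose had 1 array, so values at one dose carry no error, and whether any 2 arrays came from separate cultures or animals is not stated. The authors' signals are linear intensities scaled to a common trimmed mean, which lay between 500.731 and 500.874. Median signals were 84.6 to 87.7 on the neuron arrays and 84.1, 79.9, 73.4 and 65.4 on the astrocyte arrays in order of dose, so the 100 µg/ml array stood apart and its changes are also given relative to its median probe set.

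In a dividing cell, D-type cyclins with Cdk4 and cyclin E with Cdk2 drive G1 and release E2F factors from the retinoblastoma protein, which turns on genes for DNA synthesis. The MCM helicase then opens the DNA and PCNA clamps the polymerases to it, and Cdk1 with cyclin B, Plk1 and the aurora kinases carry the cell through mitosis until Cdc20 activates the ubiquitin ligase that ends it. Neurons have left the cycle for good, whereas astrocytes and their precursors can divide in culture. These genes are widely read as signs of dividing cells in a sample.

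The labels were checked against marker genes. All 7 neuron markers that passed the filter on dim signals were higher on the neuron arrays (limma, adjusted p under 0.05), with a summed signal of 18183 to 19421 there and 2692 to 3452 on the astrocyte arrays; Nefl, a neurofilament subunit, was at 1139 to 1269 against 10.5 to 35.1. The astrocyte markers were split, with 4 of 11 tested lower in neurons, among them S100b (6986 to 9085 in astrocytes, 1966 to 2127 in neurons), and 2 higher in neurons, Slc1a3 and Aqp4. Markers of oligodendrocytes (4 of 6 tested), microglia (6 of 7) and fibroblasts (7 of 10, with 2 higher) were lower in neurons, such as Mbp at 49.8 to 72.3 against 3232 to 5222. Of 10 neural progenitor markers tested, Neurod1, Hes1 and Dlx5 were higher in neurons. The summed signals of that list overlapped, at 34563 to 37287 in neurons and 31578 to 36693 in astrocytes. Most of each sum was Vim, at 24235 to 27366 in neurons and 23933 to 27796 in astrocytes, so the sums say little about the rest. The median difference of the 10 markers was 0.80 log2, against 0.16 for all probe sets. Vim, Nes and Fabp7 were bright on every array. Of all probe sets tested, 18% were called higher in neurons and 12.2% lower. Nefl, Snap25, Syp, Sox11, Pax6, Neurod1 and Dlx5 passed the filter through the neuron arrays alone. Through the astrocyte arrays alone passed Mbp, Mobp, Cd74, Lum, Aldh1a2, Crabp2, Gja1 and Agt. A marker that passed only where it is high had to differ, so the counts above are partly set by the filter. Some markers read below 17.9, the 25th percentile of all signals, on every array of a cell type. Mobp, of oligodendrocytes, was at 5.1 to 9.2 in neurons, and Syt1, of neurons, at 1.5 to 4.1 in astrocytes. The part of any of these other cells in the results below was not tested.

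Promoters of these genes are shown first, since the results below are given in groups by role. Cell cycle promoters often carry CCAAT boxes, the site of NF-Y, together with a CHR element, which holds late genes silent in resting cells, or an E2F site, which does the same for replication genes. RefSeq (assembly GRCr8) gave a promoter for 31 of the 39 genes and 19 of the 23 measured; Ccnd1, Ccnd2, Aurkb and Racgap1 were the measured genes with no entry. In the 250 bases before the gene start, on both strands, the letters CCAAT were searched for the CCAAT box, TTTGAA for the CHR, and 4 strings for E2F, namely TTGGCGC as well as TTCCCGC together with TTCGCGC and also TTGCCGC; E2F matches on opposite strands can overlap each other, and in Mcm7 an E2F match also overlaps a CCAAT box. The 6 promoters below are 2 helicase genes (Mcm5 at chr19:13488563-13488812 (plus strand), Mcm6 at chr13:42404353-42404602 (minus strand)), 3 late genes (Cdk1 at chr20:19265043-19265292 (plus strand), Cdc20 at chr5:137255800-137256049 (minus strand), Top2a at chr10:84473094-84473343 (minus strand)) and a G1 kinase without any match (Cdk4 at chr7:64771203-64771452 (plus strand)). They run 5′ to 3′ along the gene and end at the base before its start, and capitals mark every match, with a match on the other strand in its reverse complement.
Mcm5: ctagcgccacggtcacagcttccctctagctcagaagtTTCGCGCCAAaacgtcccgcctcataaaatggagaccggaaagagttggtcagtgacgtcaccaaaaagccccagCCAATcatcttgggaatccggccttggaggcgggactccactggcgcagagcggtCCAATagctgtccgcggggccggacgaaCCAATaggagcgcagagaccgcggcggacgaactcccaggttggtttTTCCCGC
Mcm6: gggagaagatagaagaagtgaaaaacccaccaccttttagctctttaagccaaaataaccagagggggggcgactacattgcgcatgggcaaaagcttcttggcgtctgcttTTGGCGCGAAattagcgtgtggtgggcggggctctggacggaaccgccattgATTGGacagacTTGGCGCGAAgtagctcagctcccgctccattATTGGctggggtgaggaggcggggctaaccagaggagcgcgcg
Cdk1: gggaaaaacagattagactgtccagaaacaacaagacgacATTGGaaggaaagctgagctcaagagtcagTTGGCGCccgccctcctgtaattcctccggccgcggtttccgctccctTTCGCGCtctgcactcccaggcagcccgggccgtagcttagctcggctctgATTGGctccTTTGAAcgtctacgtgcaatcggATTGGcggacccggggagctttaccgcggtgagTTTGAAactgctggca
Cdc20: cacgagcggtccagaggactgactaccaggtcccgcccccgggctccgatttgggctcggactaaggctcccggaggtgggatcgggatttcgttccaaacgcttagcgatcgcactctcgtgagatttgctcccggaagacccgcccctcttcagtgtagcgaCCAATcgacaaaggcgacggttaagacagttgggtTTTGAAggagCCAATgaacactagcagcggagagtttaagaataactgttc
Top2a: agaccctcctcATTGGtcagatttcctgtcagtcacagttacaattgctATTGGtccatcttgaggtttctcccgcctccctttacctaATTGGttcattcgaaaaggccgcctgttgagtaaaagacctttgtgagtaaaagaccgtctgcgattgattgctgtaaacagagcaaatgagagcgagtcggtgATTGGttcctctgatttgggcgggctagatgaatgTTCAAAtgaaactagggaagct
Cdk4: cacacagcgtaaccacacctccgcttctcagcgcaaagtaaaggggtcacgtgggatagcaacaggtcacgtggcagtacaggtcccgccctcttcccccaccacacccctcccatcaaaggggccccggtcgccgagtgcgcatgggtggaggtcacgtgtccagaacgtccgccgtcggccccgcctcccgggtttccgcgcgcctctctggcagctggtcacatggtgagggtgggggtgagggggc

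A CCAAT box was found in 34% of all 33469 RefSeq promoters, a CHR in 16.2% and an E2F match in 7.59%. Among the 8 genes with a promoter entry whose signal fell across the astrocyte doses (below), all 8 held a CCAAT box, Cdk1, Cdc20 and Top2a held a CHR, and Mcm5, Mcm6, Mcm7 and Cdk1 held an E2F match. Among the 7 tested genes with an entry and no such fall (Ccnd3, Ccne1, Cdk4, Pcna, Ccnb1, Cdc25b, Bub1b), 4 held a CCAAT box and 0 held either other motif. The 2 sets were made by the trend itself, so these counts are a description without a test. The trend calls that made them also depended on single arrays (below). Cdk2 and Tyms, with E2F matches, and Hmgb2, with CHR matches, were too dim to be tested and are in neither set. Among the 15 tested genes with an entry, Cdk1 was the gene with all 3 kinds of match, with CHR letters starting 72 and 16 bases before its start. A match is a stretch of letters and not a measured site, and absence from this window says nothing about the factor.

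**Figure D1:**
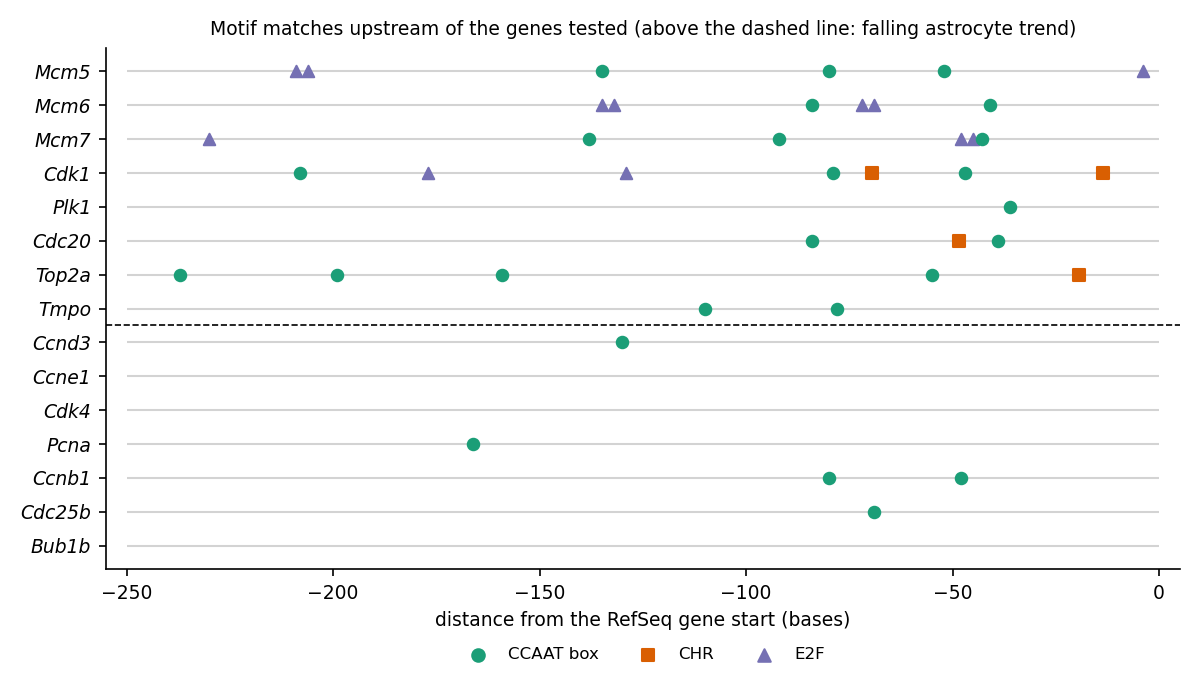
Position of each motif match (circle CCAAT box, square CHR, triangle E2F) in the 250 bases before the RefSeq start of the 15 tested genes with a promoter entry; the x axis is the distance from the start in bases. Genes above the dashed line had a falling trend over the astrocyte doses: all 8 carry CCAAT boxes, and every CHR and E2F match drawn lies in that set. Not drawn are the untested Cdk2 and Tyms, with E2F matches, and Hmgb2, with CHR matches.

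The first comparison set the cell types against each other over all doses. Most of the replication and mitotic genes tested had the higher signal in the cultures labelled neurons, from 4.02-fold to 5.49-fold for Bub1b, Mcm5, Ccnb1, Cdk1, Cdc20, Top2a and Racgap1. Mcm7, Cdc25b, Aurkb, Cdk4 and Ccnd3 did not pass. In bulk RNA, fewer dividing cells and less RNA per cell cannot be told apart. Of the 19 genes that passed the filter, 14 were higher in neurons (limma, Benjamini-Hochberg adjusted p under 0.05 over 4709 probe sets) and 0 were lower, also at an unadjusted p. Of all probe sets tested, 18% were called higher in neurons and 12.2% lower; among the brightest probe sets, 1 per gene, 17.4% were called higher. The median difference of the 19 genes was 1.22 log2 against 0.16 for all probe sets. In 16 of the 19 every neuron array lay above every astrocyte array, which held for 28.4% of all probe sets. The filter kept genes bright in either cell type; 19 of the genes met it in neurons and 18, all but Bub1b, in astrocytes. A gene that passed only where it is high had to differ, so the 18 that passed in both are also given: 13 were called higher, with a median of 1.17.

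**Figure D2:**
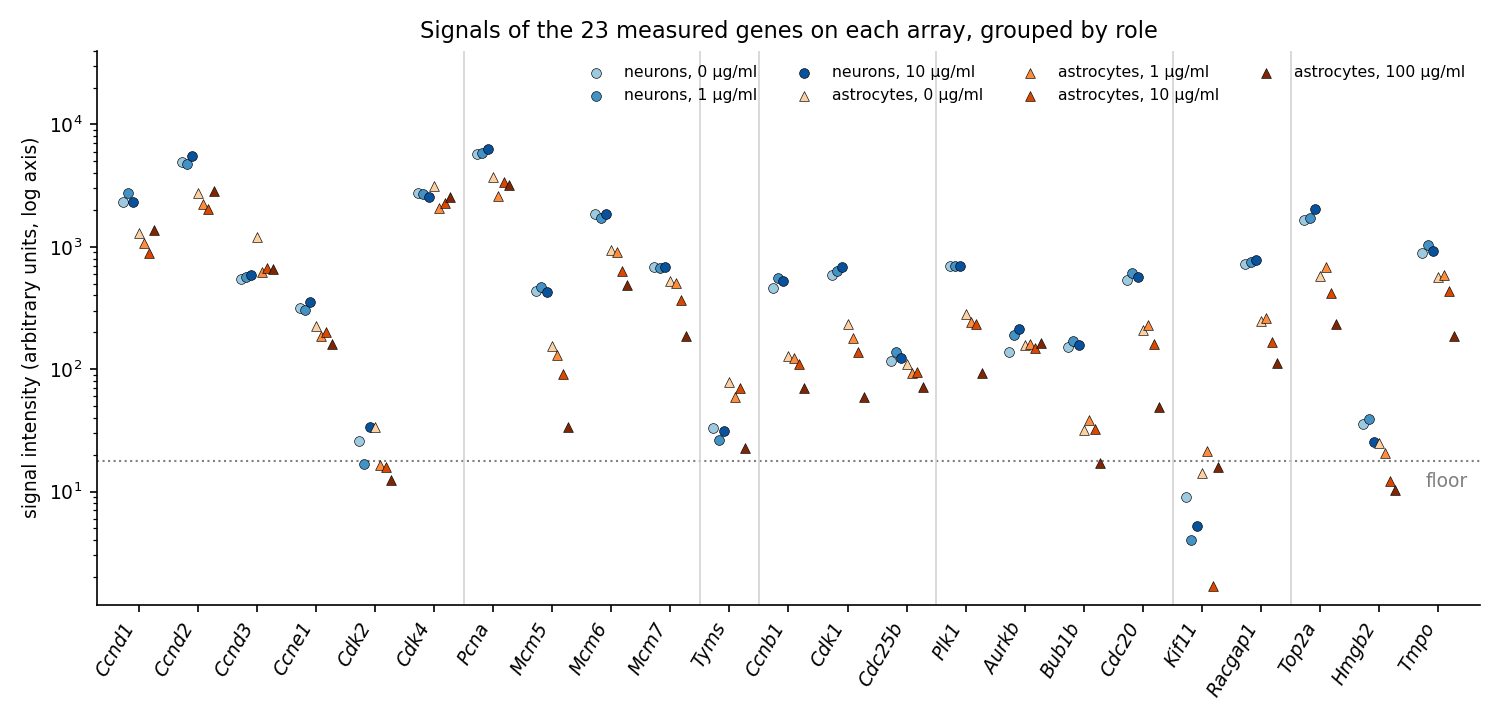
Signal intensity (log axis, arbitrary units) of the 23 measured genes on each of the 7 arrays, in order of role; circles are neuron arrays, triangles astrocyte arrays, darker with dose, and the dotted line is the floor of 17.9. For Bub1b, Ccnb1, Cdk1 and Top2a all neuron arrays sit well above all astrocyte arrays, and the 100 µg/ml astrocyte array is the lowest for most replication and mitotic genes.

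Bub1b, a kinase of the spindle checkpoint, passed the filter through the neuron arrays alone. Its signal was 152.9, 168.3 and 156.5 on the neuron arrays, in order of dose, against 31.8, 38.2, 32.5 and 17.2 on the astrocyte arrays, a difference of 2.46 ± 0.28 log2 (SE; limma adjusted p = 0.000418). The astrocyte signals were dim, and that at 100 µg/ml lay under the floor. Ccnb1, cyclin B1, which with Cdk1 starts mitosis, was at 457.4, 551.7 and 525.6 in neurons and at 128.8, 122.4, 111.0 and 69.8 in astrocytes (2.28 ± 0.25 log2, limma adjusted p = 0.000354). Its second probe set gave 1.75. Cdk1 itself read 585.4, 630.0 and 686.1 in neurons and 234.0, 181.3, 137.7 and 59.6 in astrocytes (2.21 ± 0.44 log2, limma adjusted p = 0.00685). In these 3 genes every neuron array stood above every astrocyte array.

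Cdc25b, the phosphatase that activates Cdk1, was dim in both, at 115.8 to 136.9 in neurons and 70.8 to 111.1 in astrocytes, without overlap but not called (0.46 ± 0.21 log2, limma adjusted p = 0.136). Among the mitotic kinases, Plk1, which acts at centrosomes and kinetochores, was at 697.2, 691.9 and 702.4 in neurons and 281.3, 245.0, 235.1 and 93.8 in astrocytes (1.82 ± 0.37 log2, limma adjusted p = 0.00807). Aurkb, the kinase of the chromosome passenger complex, overlapped between the cell types, with 139.1, 188.9 and 212.1 in neurons and 157.1, 159.0, 147.6 and 164.9 in astrocytes (0.18 ± 0.20 log2, limma adjusted p = 0.538). Aurkb, read by 1 probe set, was thus not called where Plk1, Cdk1 and Ccnb1 were, but no test compared these genes with each other. Cdc20 read 537.3, 609.2 and 566.9 against 210.0, 230.1, 159.0 and 48.8 (2.04 ± 0.52 log2, limma adjusted p = 0.0203). The call for Cdc20 was lost in 4 of 15 alternatives, with an adjusted p of up to 0.0766 without the 1 µg/ml neuron array.

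Racgap1, a regulator of cytokinesis, was at 726.4, 746.2 and 779.6 in neurons and 249.0, 261.4, 165.7 and 112.4 in astrocytes (2.01 ± 0.31 log2, limma adjusted p = 0.00198). Top2a, the topoisomerase that untangles replicated chromosomes, was at 1643, 1723 and 2024 in neurons and 574.7, 686.4, 418.4 and 232.9 in astrocytes (2.02 ± 0.35 log2, limma adjusted p = 0.00384). Tmpo, which encodes lamina-associated polypeptides of the nuclear envelope, was at 891.8, 1032 and 928.7 against 570.7, 585.4, 435.7 and 187.1 (1.22 ± 0.39 log2, limma adjusted p = 0.0494), and 8 of 14 alternatives kept that call, with an adjusted p of up to 0.152 without the 1 µg/ml neuron array. For these 3 genes too, no astrocyte array reached a neuron array.

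The helicase subunits differed in size of gap. Mcm5 was at 434.7, 471.6 and 424.9 in neurons and 153.4, 130.5, 91.5 and 33.8 in astrocytes (2.32 ± 0.49 log2, limma adjusted p = 0.00947). Mcm6 read 1849, 1726 and 1870 against 934.2, 913.3, 634.6 and 484.9 (1.34 ± 0.24 log2, limma adjusted p = 0.00466), and its 3 probe sets gave 0.79 to 1.59, each called. Mcm7 was at 684.9, 670.3 and 680.4 against 521.1, 502.0, 369.5 and 187.3. All neuron arrays of Mcm7 lay above all astrocyte arrays, but the difference of 0.89 ± 0.35 log2 did not pass (limma adjusted p = 0.0964). Pcna, the sliding clamp, was bright throughout, at 5753, 5827 and 6316 in neurons and 3716, 2598, 3381 and 3183 in astrocytes (0.90 ± 0.13 log2, limma adjusted p = 0.00171).

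The 3 D-type cyclins, which answer growth signals in G1, did not share a pattern. Ccnd1 was at 2343, 2739 and 2315 in neurons and 1300, 1073, 891.9 and 1362 in astrocytes (1.11 ± 0.18 log2, limma adjusted p = 0.00237), with 3 of its 4 tested probe sets called and the dimmest at 0.15. Ccnd2 was at 4940, 4734 and 5471 against 2768, 2248, 2027 and 2844 (1.04 ± 0.15 log2, limma adjusted p = 0.00128), and both its probe sets were called. Ccnd3 ran the other way, at 542.0, 568.8 and 586.8 in neurons and 1199, 619.1, 675.6 and 658.6 in astrocytes: every astrocyte array lay above every neuron array, yet the difference of -0.42 ± 0.25 log2 did not pass (limma adjusted p = 0.234), and its second tested probe set gave -0.64. The untreated astrocyte array was the high one in the brighter Ccnd3 probe set but not in the other, which read 316.5 untreated and 412.8 at 1 µg/ml.

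Ccne1, cyclin E1, was at 305.4 to 354.1 in neurons and 159.8 to 227.3 in astrocytes (0.75 ± 0.18 log2, limma adjusted p = 0.0168). That call rested on 1 of its 2 probe sets, since the other gave 0.20, and it was lost in 4 of 14 alternatives, with a limma adjusted p of up to 0.126 when probe sets were averaged. Cdk4, the partner of D-type cyclins, was at 2549 to 2750 in neurons and 2068 to 3129 in astrocytes (0.11 ± 0.15 log2, limma adjusted p = 0.626), overlapping throughout. Cdk2, Tyms (thymidylate synthase), Kif11 (a spindle motor) and Hmgb2 (a chromatin protein) were too dim to be tested. Their signals lay at 12.5 to 33.7, 22.6 to 79.2, 1.7 to 21.6 and 10.2 to 38.9. Brighter probe sets for Hmgb2 are shared with related sequences and were kept out of the counts; the brightest read 1680 to 1939 in neurons and 820.4, 905.9, 610.3 and 112.8 in astrocytes.

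**Figure D3:**
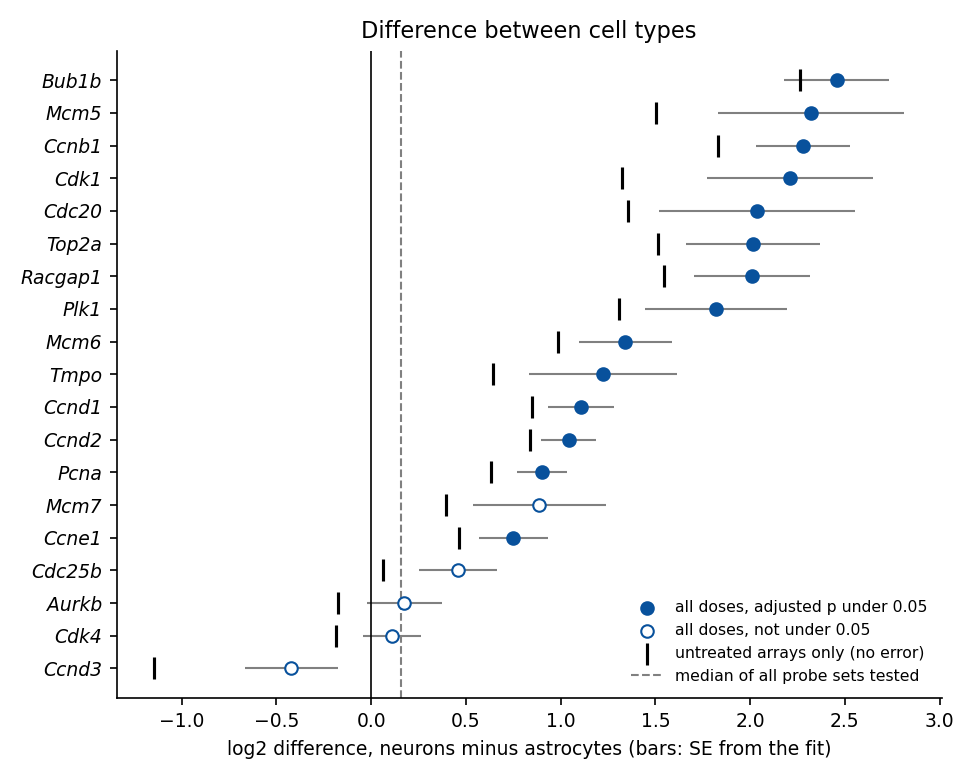
Log2 difference, neurons minus astrocytes, of the 19 tested genes over all doses (points, bars SE from the limma fit; filled where adjusted p was under 0.05), with the difference between the untreated arrays alone as black ticks, which have no error. The filled points run from 0.75 to 2.46, and the dashed line is the median of all probe sets tested, 0.16.

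The arrays compared were at different doses, and neurons had none at 100 µg/ml, so the gap was also read on matched arrays. Between the untreated arrays alone, 16 of the 19 genes were higher in neurons, 8 of them at least 2-fold, as were 12.7% of all probe sets, and Ccnd3 was at least 2-fold lower. The median difference there was 0.85 log2, against 0.03 for all probe sets. Without the 100 µg/ml array 15 of 19 genes were called higher, as were 24.9% of all probe sets, and over the 6 arrays at shared doses with dose as a block 15 genes and 22.6%. Centring each array on its median turned the split over all probe sets from 848 higher and 575 lower to 652 and 833, and left 14 of the 19 genes called higher and 0 lower. Leaving out any 1 neuron array left 11, in fits that called 11.6% to 12.4% of all probe sets higher.

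The second comparison asked how these genes moved with the extract in astrocytes. Several helicase and mitotic genes were lowest at 100 µg/ml: Mcm5 at 33.8 was 4.54-fold below its untreated signal, Cdc20 4.3-fold, Cdk1 3.93-fold, Tmpo 3.05-fold, Plk1 3-fold, Mcm7 2.78-fold, Top2a 2.47-fold and Racgap1 2.22-fold. Ccnd1, Ccnd2, Aurkb, Pcna and Cdk4 were within 1.23-fold of untreated. All of these changes are between single arrays and have no test, and every dose is set against the same untreated array.

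At 1 µg/ml 0 of the 18 genes that passed the filter in astrocytes were 2-fold lower or higher, against 0.964% and 1.03% of all probe sets, and the median change was -0.22 log2 with 13 of 18 below 0. Ccnd3 came nearest, at -0.95. At 10 µg/ml, where 2.21% of probe sets were at least 2-fold lower and 4.3% higher, again 0 reached that size, but all 18 were below untreated, by 0.09 to 0.83 log2. Their median was -0.45, against -0.10 for all probe sets; centred arrays gave -0.25 and 0.10. At 100 µg/ml 8 of 18 were at least 2-fold lower and 0 higher, against 19% and 6.63% of all probe sets. The median of all probe sets was itself -0.26 there, and that of the genes -0.91. Relative to the median probe set, 7 of 18 were at least 2-fold lower, against 13.5% of all probe sets, with a median of -0.65. Those 7 were Mcm5 (-1.92), Cdc20 (-1.84), Cdk1 (-1.71), Tmpo (-1.35), Plk1 (-1.32), Mcm7 (-1.22) and Top2a (-1.04).

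On that relative scale the roles overlapped. The G1 genes had a median of -0.04, with Ccnd1 at 0.33, Ccnd2 at 0.30, Cdk4 at -0.04, Ccne1 at -0.25 and Ccnd3 at -0.60. The replication genes had a median of -0.95, from Pcna at 0.04 through Mcm6 at -0.69. The genes of the S and G2/M step had a median of -0.62, with Ccnb1 at that value and Cdc25b at -0.39. Racgap1 was at -0.89, and of the mitotic kinases bright enough to compare Plk1 was at -1.32 and Aurkb at 0.33. On the deposited scale Ccnd1 and Aurkb were each at 0.07 and Ccnd2 at 0.04, so the size of these values depends on the scaling. Probe sets of a gene differed in size. The 3 of Mcm6 gave -1.48 to -0.45. A second Top2a probe set, dim in astrocytes, gave -0.21, with a slope over dose that was not called (limma adjusted p = 0.414), and a second one of Tmpo gave -0.64 (0.0678 for its slope). A filter at the 75th percentile of all signals (435.7) kept 7 of the 18 genes, Ccnd1, Ccnd2, Ccnd3, Cdk4, Pcna, Mcm6 and Top2a; of these 1, Top2a, was at least 2-fold lower, and their relative median was -0.16.

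**Figure D4:**
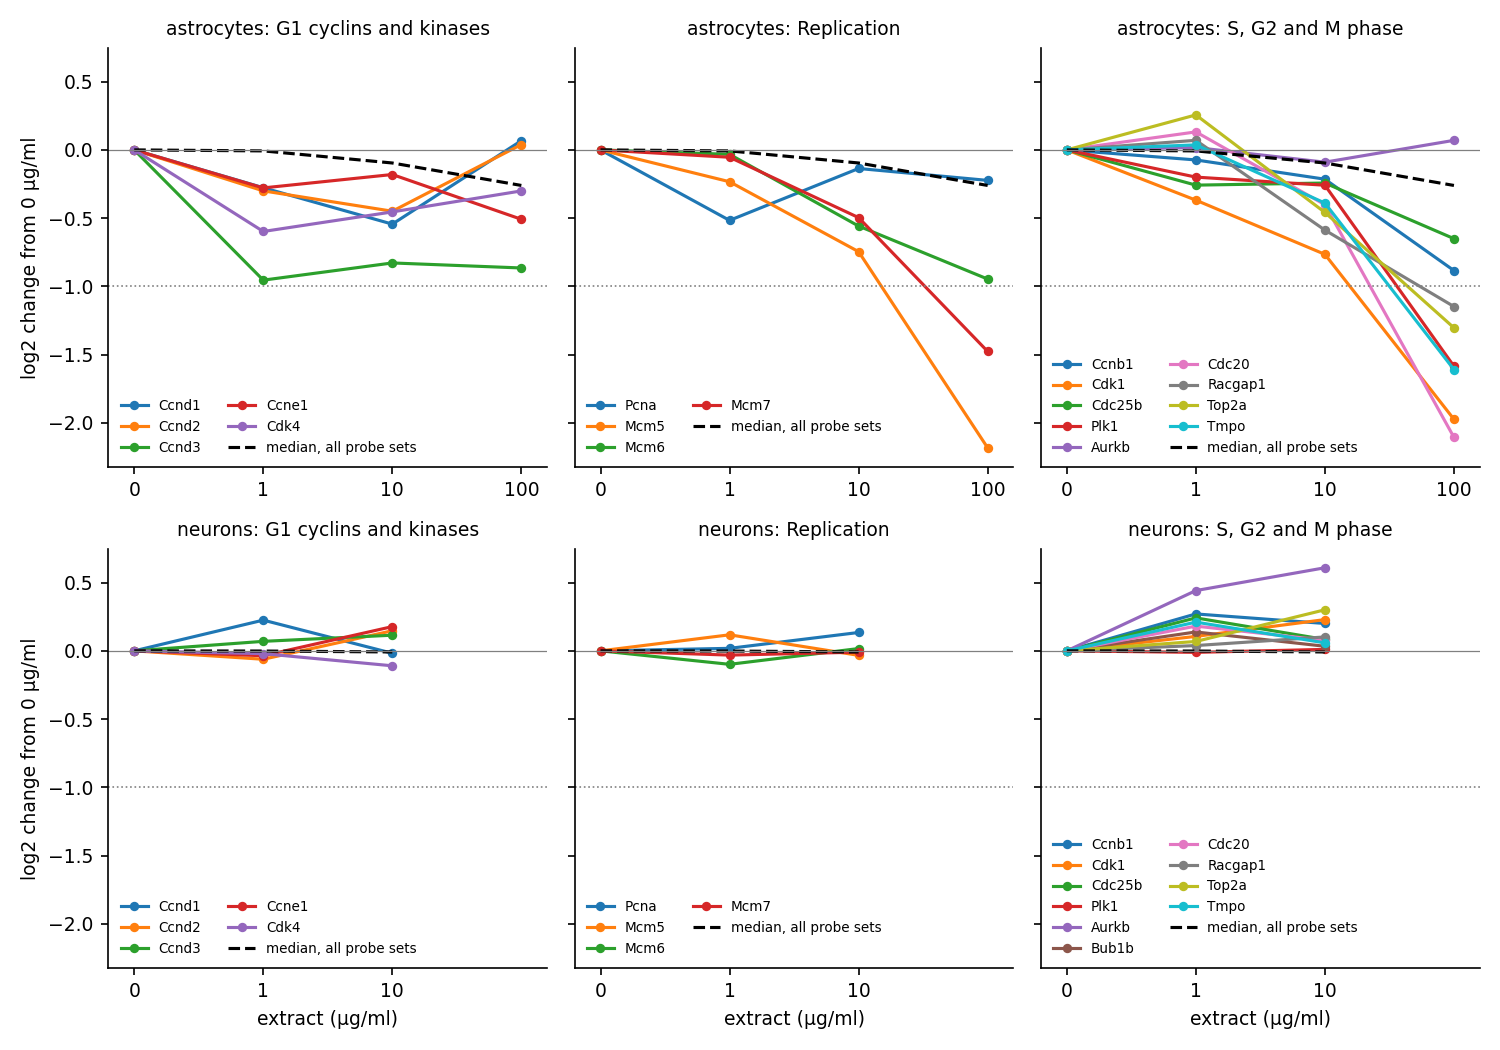
Log2 change from the untreated array against extract dose (µg/ml), for astrocytes (top, 18 genes) and neurons (bottom, 19 genes), 1 array per dose and thus no error bars; panels group genes by role, the dashed line is the median of all probe sets and the dotted line marks a 2-fold fall. In astrocytes Mcm5, Cdk1 and Cdc20 lie between -2.18 and -1.97 at 100 µg/ml while Ccnd1, Ccnd2 and Aurkb lie at 0.04 to 0.07, and in neurons all lines stay between -0.11 and 0.61.

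The extract was tested as a trend over dose. It is a slope over log10(dose + 1), with its own intercept and slope for each cell type. The cell types share a single estimate of the spread, so the p-values in astrocytes also rest on the neuron arrays. In astrocytes 9 of the 19 genes fell with dose (limma, adjusted p from 0.0108 to 0.0263) and 0 rose, also at an unadjusted p; among all probe sets 15.5% fell. The 9 were Mcm5, Mcm6, Mcm7, Cdk1, Plk1, Cdc20, Racgap1, Top2a and Tmpo. Cdc20 had a slope of -1.09 ± 0.20 (SE) log2 per unit, Mcm5 -1.08 ± 0.15 and Cdk1 -0.95 ± 0.14. Ccnb1 (-0.43 ± 0.14, limma adjusted p = 0.0747) and Bub1b (-0.46 ± 0.18, 0.112) were not called, nor was any G1 gene. The median slope of the 19 genes was -0.46, against -0.13 for all probe sets.

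This count depended on single arrays and on the scaling. Without the 100 µg/ml array 0 of the 19 genes were called falling, and likewise 0 without the 1 µg/ml astrocyte array or any 1 of the 3 neuron arrays, fits in which 3 to 52 of all probe sets were called falling. Leaving out the untreated astrocyte array left 8, with 10.5% of all probe sets falling, and leaving out the 10 µg/ml array 10, with 26.8%. Over all probe sets 732 fell and 237 rose on the deposited scale, 553 and 298 after quantile normalization, and 307 and 438 after centring, with 8 and 6 of the genes falling in the last 2 (11.8% and 6.54% of all probe sets).

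Cell type markers also differed over the same arrays, in both directions within a list. Among microglial markers Aif1 read 250.8 at 100 µg/ml against 1637 untreated, whereas Fcgr2b read 1162 against 248.3 and Cd74 214.4 against 173.3. Of the 7 microglial markers that passed the filter in astrocytes, 5 were below untreated. Among oligodendrocyte markers Pdgfra read 1232 against 3730, whereas Mbp read 5222 against 3895, with 5 of the 6 that passed there below untreated. Mog, too dim to pass the filter, read 89.2 against 22.4. Among astrocyte markers Slc1a3 read 965.6 against 3976, whereas Glul read 8134 against 5035. Of the 11 astrocyte markers that passed the filter there, 8 were below untreated. In the neuron list Map2 read 382.4 against 935.6 and Uchl1 2657 against 1604, with 3 of 4 below untreated. In the neural progenitor list Hes1 read 120.7 against 338.1 and Nes 2996 against 2074, with 5 of 6 below. The summed signal of the microglial markers was 21557, 21651, 20879 and 14416 in order of dose, that of the oligodendrocyte markers 10613, 10860, 14147 and 8893, and that of the fibroblast markers 66768, 61745, 56040 and 60712. For the astrocyte markers it was 70340, 73272, 67314 and 63719. For the neuron markers it was 3245, 3452, 2692 and 3433, and for the neural progenitor markers 36216, 36693, 31578 and 34262, most of it Vim. The part of such cells in the values of the cell cycle genes was not tested.

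In neurons the same genes stayed close to untreated at 1 and 10 µg/ml. Plk1 varied by an SD of 5.25 around 697.2 over the 3 neuron arrays, and Mcm7 by 7.48 around 678.5. None of the 19 genes was 2-fold lower or higher at 1 µg/ml (0.292% and 0.269% of all probe sets) or at 10 µg/ml (0.472% and 0.292%). Median changes were 0.07 and 0.08 log2, and the widest was Aurkb, at 0.44 and 0.61. Slopes in neurons were called for 0 of the 19 genes, with 0 at an unadjusted p under 0.05, and for 0 of all probe sets (limma; 90 unadjusted).

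Whether the slope differed between the cell types was tested directly. The slope was higher in neurons than in astrocytes for 17 of 19 genes, by a median of 0.54 log2 per unit against 0.13 for all probe sets. None passed adjustment (limma), and 1 of all probe sets did. At an unadjusted p under 0.05 there were 8 of the 19 genes and 523 of the 4709 probe sets. The smallest p was that of Cdk1, a difference of 1.16 (limma, unadjusted p = 0.00824, adjusted p = 0.35). Neurons had no array at 100 µg/ml, the dose without which none of these genes had a called slope in astrocytes.

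Other cell cycle genes on the array were listed by function. Of 31 other replication genes, 14 were measured and 12 tested; 3 were higher in neurons (Rfc4, Dut and Dnmt1, by 1.36, 1.34 and 1.00 log2) and 0 lower, and 7 fell with dose in astrocytes (limma), against 18% higher, 12.2% lower and 15.5% falling among all probe sets. The 3 of 12 higher are near that background. At 100 µg/ml 6 of 11 were at least 2-fold lower relative to the median probe set, against 13.5%. The largest changes were in Pold1, the catalytic subunit of polymerase delta, at 211.7, 159.3, 117.9 and 20.2 in order of dose, in the primase subunit Prim2, at 410.3, 314.8, 248.4 and 41.9, and in Rpa3, of the single-strand binding complex, at 297.6, 191.2, 114.2 and 30.7. They were 10.5-fold, 9.79-fold and 9.69-fold below untreated, more than any of the 18 genes above. Rpa3 differed from neurons by 1.82 log2, without passing (limma adjusted p = 0.0865).

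Of 44 other G2 and mitosis genes, 13 were measured and 8 tested. Kifc1, Stmn1, Hmmr, Pttg1 and H2az1 were higher in neurons (limma; 18% of all probe sets). Stmn1, a tubulin-binding protein that neurons also make, differed by 1.81 log2. Kifc1, a mitotic kinesin, and Hmmr passed the filter through neurons alone; Kifc1 read 81.0 to 121.8 there and 3.2 to 17.0 in astrocytes, all under the floor, so the floor sets its fitted difference of 2.46. Smc4, of the condensin complex, Pttg1, the securin, and H2az1, a histone variant, fell with dose in astrocytes, against 15.5% of all probe sets. Smc4 read 337.6, 361.0, 252.2 and 56.6. Against 13.5% of all probe sets, it was the 1 gene of 6 in the astrocyte comparison at least 2-fold lower on the relative scale. Wee1, which restrains Cdk1, was at -0.42 there.

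Regulators upstream of the cycle behaved differently from one another. Of 16 Rb and E2F regulators 5 were measured and 3 tested. E2f5 was higher in neurons by 1.09 log2 (limma adjusted p = 0.00213), and Rbl2, a relative of the retinoblastoma protein, differed by 0.43 (0.466). Myc, a growth-promoting factor, rose with dose in astrocytes, at 130.9, 117.5, 192.5 and 253.4 (limma adjusted p = 0.0476), while Rbl2 was at 185.0 untreated and 66.7 at 100 µg/ml without passing (0.0522). Of 21 inhibitors and arrest genes 9 were measured and 7 tested: Cdkn1a, the inhibitor p21, was lower in neurons by 1.25 log2 (limma adjusted p = 0.00794) and Gadd45a, a stress gene, higher by 0.74 (0.00412). Klf4 rose with dose in astrocytes, at 329.8, 277.6, 437.2 and 1879 (limma adjusted p = 0.0184), and differed between cell types by -0.81 log2 without passing (0.365); Ccng1, cyclin G1, fell over the doses from 4992 to 2146 (0.019). Cdkn1a was at 429.7, 419.2, 625.7 and 741.6 in astrocytes, which did not pass (limma adjusted p = 0.0658). The trends of these genes rest on the same fit, whose calls depend on single arrays as given above. Among all probe sets 18% were higher in neurons and 12.2% lower, 15.5% fell with dose and 237 of 4709 rose. With 3 and 7 genes tested, the counts in these lists are not set apart from those shares.

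**Figure D5:**
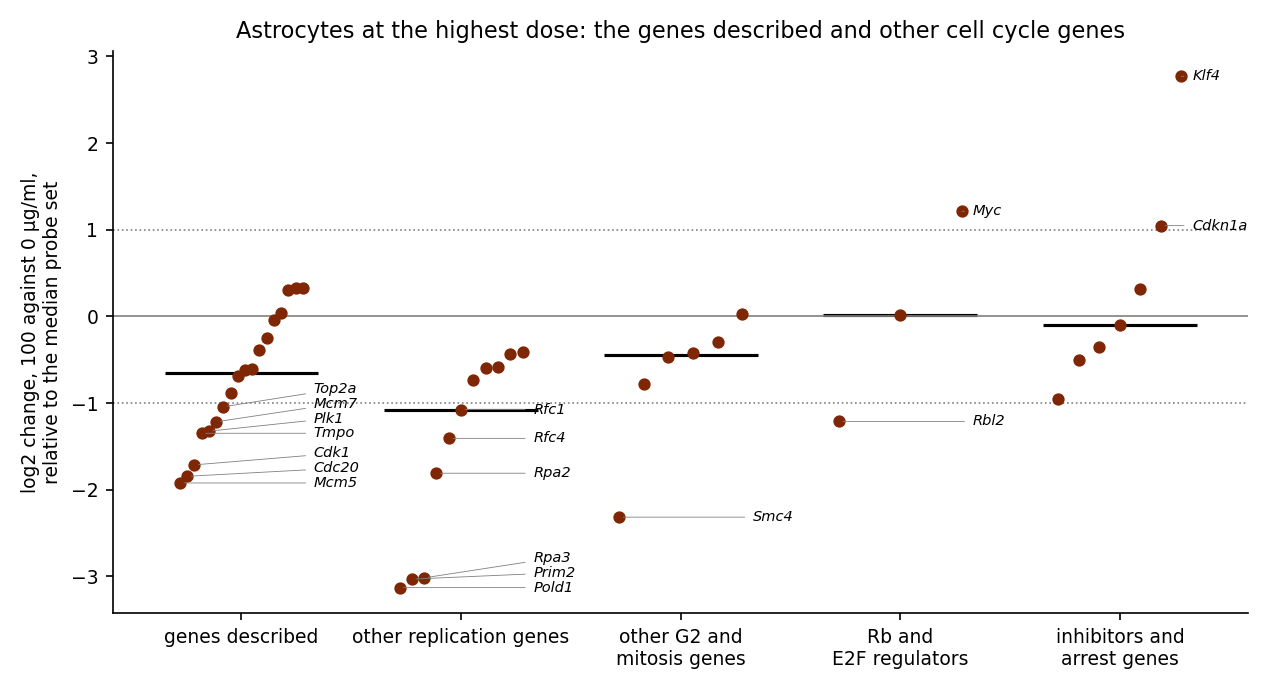
Log2 change at 100 against 0 µg/ml in astrocytes, relative to the median probe set, for the 18 genes described and 4 lists of other cell cycle genes; each point is a gene, each bar the median of its list, dotted lines mark 2-fold, and genes beyond them are named. The bars lie at -0.65 for the genes described and -1.07 for other replication genes, while Myc, Cdkn1a and Klf4 lie above the upper line.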

How the data were processed

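Total RNA (100 ng) was amplified in a two-cycle biotin procedure, per the labels' protocols, and hybridised to 7 arrays. The deposited values are signal intensities on a linear scale, computed by the authors with GCOS, per the submitters' processing notes; its version is not given in the sources used here. Control probe sets (59 of 8799) were left out. Gene names came from the platform annotation: 7006 of the 8740 probe sets had 1 symbol, 308 several and 1426 none. Signals under the 25th percentile (17.9) were set to that value before taking log2. A probe set was tested where its mean log2 signal in a cell type was above the median of all signals (79.9): 4453 in neurons, 4252 in astrocytes, 4709 in either. Cell types (3 against 4 arrays) and dose slopes were fitted in R 4.3.3 with limma 3.58.1 (lmFit and a trended eBayes), two-sided, with Benjamini-Hochberg adjustment over all probe sets tested and a threshold of 0.05. The fits were also run on simulated data with independent noise of the same spread for every probe set. Such data lack the shift of the 100 µg/ml array, so that run cannot vouch for the calls given here. The spread in each fit is that between single arrays, and may be technical; in the comparison of cell types it holds the dose effect. No 2 arrays held identical values, and the number of arrays limits the precision.

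The genes, lists, filters and tests were chosen with earlier results of these data known. Every measured gene of the list was named. Signals on each array were given for the 5 largest differences between cell types each way, the 8 largest falls and 3 largest rises at 100 µg/ml, the D-type cyclins and the MCM subunits. From each other list the 3 largest changes and the 2 largest cell type differences were named; others named there were chosen after their values were seen. Alternatives were quantile normalization, centring on the median, leaving out the floor or the filter, filtering at the 75th percentile, averaging probe sets, a constant prior, ranked doses, separate fits of the cell types, blocking by dose, the mean of lower doses as reference, and leaving out each array. Plots used matplotlib 3.10.9 under Python 3.11.15.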

Additional observations from a re-analysis of the deposited data

Results flagged for a closer look

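Of 18 genes looked at in both cell types, 5 had every treated neuron array above the untreated neuron array and every treated astrocyte array below the untreated astrocyte array. The same count was not made over all probe sets, so the 5 have no background. The median change of all probe sets in astrocytes was -0.01, -0.10 and -0.26 in order of dose. Choosing genes by this rule favours a positive difference of slopes. The slope in neurons minus the slope in astrocytes, in log2 per unit of log10(dose + 1), was 1.16 for Cdk1 (limma, unadjusted p = 0.00824, adjusted p = 0.35), 0.572 for Ccnb1 (adjusted p = 0.529), 0.38 for Ccnd3 (0.751), 0.305 for Cdc25b (0.742) and 0.14 for Pcna (0.863). None of these differences passed adjustment. All treated arrays of a cell type were set against the same untreated array; for Ccnd3 the untreated astrocyte array read 1199 and the treated arrays 619.1 to 675.6.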

How the results depend on the processing

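The count of genes higher in neurons kept to 11 to 15 under every alternative, and 0 were called lower. The count falling with dose in astrocytes, 9, became 0 without the filter on dim signals, with ranked doses and with each cell type fitted alone, and ranged from 0 to 10 when 1 array was left out. Over all probe sets those first 3 fits called 4, 10 and 3 falling. With the filter at the 75th percentile 1 gene was at least 2-fold lower at 100 µg/ml, on the deposited and on the relative scale, of 7 left. The median change at 10 µg/ml was -0.25 after centring. At 100 µg/ml it was -0.72 after quantile normalization, -0.55 after centring, -0.30 with the filter at the 75th percentile and -0.77 against the mean of lower doses; the relative median was -0.83 without a filter and -0.16 with the stricter one. For single genes, 480 of 575 values over 38 results kept their side of the threshold, 92 lost the call and 3 gained it. The sign changed in 15 values, of 7 genes such as Cdk4, Ccnd1 and Pcna, and 0 of these were called in either setting. The cause of the shifts was not tested, save that the stricter filter and the left-out arrays leave fewer genes or arrays.

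Pairing the arrays of the cell types by dose, as a block over 6 arrays, left 15 genes higher in neurons. Bub1b, Cdk2, Kif11 and Hmgb2 were under the floor on some arrays, which limits their folds.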
